A study of Mus musculus with 6 samples.

Results

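The GIMAP genes (GTPases of immunity-associated proteins) are a family of GTP-binding proteins made mainly by lymphocytes. All 8 members examined here, Gimap1, Gimap3, Gimap4, Gimap5, Gimap6, Gimap7, Gimap8 and Gimap9, were taken by gene symbol from the 55951 genes of the deposited expression table. Each symbol was found, and all 8 passed the filter on low values (a mean of at least 1 FPKM over the 6 libraries). FPKM, a fragment count scaled by transcript length and by the size of the library, is the deposited unit of expression and allows levels to be set side by side between genes. Per the labels, polyadenylated RNA was sequenced from effector-memory CD8+ T cells of the spleen, gated as CD3+, CD8+, CD4-, CD44+ and CD62L-. The cells came from C57BL/6 mice of the genotype S100A4-EGFP (written S100A4WT-EGFP in the growth protocol), a fluorescent reporter of S100A4, in an ovalbumin model of asthma. Sorting gave EGFP-negative cells (S100A4-negative, 3 libraries) and EGFP-positive cells (S100A4-positive, 3 libraries), so the asthma model and the reporter are common to both groups. The labels call the sorted cells untreated and give no age. They do not say whether the 3 libraries of a group came from separate animals, so p-values measure only the spread between these samples.

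GIMAP proteins share a GTP-binding domain of the AIG1 type and sit on intracellular membranes, among them those of the endoplasmic reticulum, mitochondria, lysosomes and lipid droplets. They are best known for lymphocyte survival: loss of Gimap5 or Gimap1 in rodents leads to a shortage of peripheral T cells. Partners that have been linked to family members include proteins of the BCL2 family, the ATG8-like protein GABARAPL2 and the kinase GSK3β.

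Like many other nucleotide-binding proteins, the GIMAP proteins carry a P-loop, which in protein terms is a glycine, any 4 residues, a glycine, a lysine and then a serine or threonine. Coding sequences built from the GENCODE M21 annotation of GRCm38 (the build that mm10 names) held this motif once in 7 of the members and 3 times in Gimap8, the longest member with 688 codons against 291 to 328 in the other members. The 8 codons of each match are shown because they are the stretch common to every member, and the glycine, lysine and serine codons that end the loop are in capitals. All lie in coding exons on chromosome 6, and all 10 matches end in serine.
Gimap1, chr6:48742552-48742575, + strand: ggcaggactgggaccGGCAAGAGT
Gimap3, chr6:48765887-48765910, - strand: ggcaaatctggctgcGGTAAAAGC
Gimap4, chr6:48690421-48690444, + strand: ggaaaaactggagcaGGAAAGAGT
Gimap5, chr6:48752594-48752617, + strand: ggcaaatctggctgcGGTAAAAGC
Gimap6, chr6:48702750-48702773, - strand: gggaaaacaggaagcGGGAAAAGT
Gimap7, chr6:48723524-48723547, + strand: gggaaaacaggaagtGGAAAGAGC
Gimap8, match at residue 55, chr6:48650256-48650279, + strand: gggaaacagggcgcaGGCAAAAGT
Gimap8, match at residue 291, chr6:48656119-48656142, + strand: gggaagcgtggtgttGGGAAAAGT
Gimap8, match at residue 482, chr6:48658746-48658769, + strand: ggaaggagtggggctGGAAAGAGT
Gimap9, chr6:48677523-48677546, + strand: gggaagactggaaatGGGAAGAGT

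Gimap3 and Gimap5 had the same 24 bases here, and their coding sequences were identical at 90.7% of 898 aligned bases. In the other 20 pairs among the 7 members with a single P-loop, identity ran from 58.1% to 68.9% of aligned bases. How reads that fit both Gimap3 and Gimap5 were counted is not given in the sources used here, so the split between these near copies is uncertain.

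The libraries held 14925260 to 18660188 reads, as recovered from the deposited values, and the markers of several cell types differed between the groups. All 15 T cell markers were lower in S100A4-positive libraries, their summed level being 2136 to 2685 FPKM in S100A4-negative and 353 to 483 FPKM in S100A4-positive libraries. Cd8a, a chain of the CD8 co-receptor used in the gate, was 137 ± 51.1 FPKM in S100A4-negative and 22.6 ± 9.17 FPKM in S100A4-positive libraries (SD, n = 3 each). Its partner chain Cd8b1 was 141 ± 46.6 and 14.9 ± 5.06 FPKM. Cd4, which the gate excludes, was at 67.2, 337 and 111 FPKM in S100A4-negative and 42.5, 52.4 and 66.6 FPKM in S100A4-positive libraries. It was above Cd8a in S100A4-negative replicate 2 (85.2 FPKM of Cd8a) and in each S100A4-positive library (13.6, 22.4 and 31.9 FPKM), levels at odds with the CD4- label. That gate is set on protein, whereas these values are bulk RNA, and which cells carried the Cd4 RNA was not tested. The groups' Cd4 levels were not called different (log2 fold change -1.35, SE 0.53; limma adjusted p = 0.0576). Cd44, which the gate requires, rose by 1.72 on the log2 scale, from 165.7 ± 38.2 to 547.6 ± 125.8 FPKM in S100A4-positive libraries. Of the 15 monocyte and macrophage markers 14 were tested and all 14 were higher, with summed levels of 488 to 676 FPKM in S100A4-negative and 7094 to 8214 FPKM in S100A4-positive libraries. Neutrophil markers were lower (8 of 9 called; 3278 to 4866 against 413 to 1717 FPKM summed), as were those of plasma cells (7 of 8 lower, 1 higher; 1332 to 2793 against 360 to 653 FPKM) and B cells (10 of 12 lower; 658 to 1925 against 358 to 587 FPKM). The B cell count fell to 4 after median-of-ratios rescaling, to 5 without S100A4-negative replicate 2 and to 6 without S100A4-positive replicate 2. Dendritic cell markers were higher (8 of 9 called; 48.4 to 87.6 against 371 to 522 FPKM summed), with 5 called when S100A4-positive replicate 2 or 3 was left out. Of 5 tested NK cell markers 4 were lower and 1 was higher (Tyrobp, which myeloid cells also express). Of 4 tested endothelial markers 3 were higher and 1 lower, and of 4 tested erythroid and platelet markers 1 was lower, with Emcn and Gp1bb of these lists at 0 in every library. S100a4 itself was listed at 0, 0.405 and 0.129 FPKM in S100A4-negative and at 1.27, 4.02 and 1.52 FPKM in S100A4-positive libraries. These values rest on few recovered reads, 0, 3 and 1 in S100A4-negative and 9, 25 and 11 in S100A4-positive libraries. In S100A4-positive libraries Csf1r was at 1040 ± 204 and Lyz2 at 3039 ± 169 FPKM, above Cd8a. In S100A4-negative libraries Jchain was at 1632 ± 688, S100a9 at 1349 ± 271 and Cd79a at 247 ± 108 FPKM. These levels, too, are at odds with the label of CD8+ T cells. Which cells carried this RNA was not tested, and the group names below follow the labels. In bulk RNA, fewer cells of a type and less RNA per cell cannot be told apart, and the part of these marker differences in the GIMAP results was not tested.

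Every GIMAP gene was lower in S100A4-positive than in S100A4-negative libraries, between 4.64-fold (Gimap1) and 7.35-fold (Gimap3) by the ratio of the mean FPKM. Summed over the 8 genes, the level was 1500.6, 1584.5 and 1435.8 FPKM in the S100A4-negative libraries and 208.2, 181.19 and 288.2 FPKM in the S100A4-positive ones. The means were 1507 ± 74.6 and 225.9 ± 55.7 FPKM (SD, n = 3 each), a 6.67-fold difference. In reads, the family took 20.9 to 23.0 of every 10000 reads in S100A4-negative libraries and 2.62 to 4.17 in S100A4-positive libraries. The groups did not overlap, and the exact two-sided permutation test gave p = 0.1, the smallest that 3 libraries against 3 allow.

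Across all genes, limma on log2(FPKM + 1) tested 13241 genes with Benjamini-Hochberg adjustment and called those with an adjusted p under 0.05. All 8 GIMAP genes were called lower, where 43.4% of all tested genes were called lower and 19% were called higher. All 8 also had groups that did not overlap with S100A4-positive lower, as did 49.1% of tested genes, so both counts stand against a high background. All 8 were called with a log2 fold change of -2 or below, which held for 3.58% of tested genes. A negative log2 fold change here means less RNA in S100A4-positive libraries, and adding 1 to the FPKM makes the change of weakly expressed genes look smaller than it is. The median log2 fold change was -2.51 for the 8 genes and -0.36 for all tested genes, a difference of -2.15. The share of tested genes with a more negative fold change ranged from 1.31% for Gimap3 to 2.95% for Gimap1. Scaling moves these background counts: 69.6% of all calls were lower on the deposited scale and 46.7% with median-of-ratios rescaling, a shift of 0.34 in the median of all genes. With quantile normalization 58.0% were lower and the shift was 0.20. Under these rescalings all 8 GIMAP genes were still called lower, with medians of -2.15 and -2.30. Without S100A4-negative replicate 2, the library highest in Cd4, all 8 were again called lower, with a median of -2.48.

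**Figure D1:**
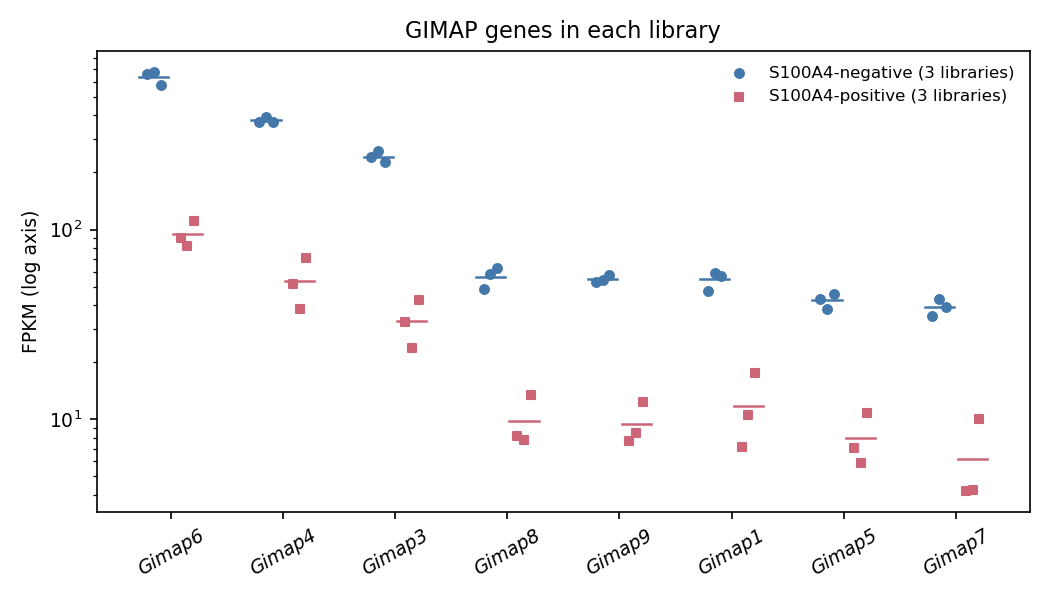
FPKM (log axis) of the 8 GIMAP genes in each of the 6 libraries, ordered by their S100A4-negative mean; circles are S100A4-negative and squares S100A4-positive libraries, and short lines are group means. For each gene the 3 S100A4-positive libraries lie below the 3 S100A4-negative ones, and in each the highest S100A4-positive value is that of replicate 3.

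The plot of FPKM by gene shows 3 abundant members, Gimap6, Gimap4 and Gimap3, and 5 members at lower levels. Gimap6, whose protein has been found to bind GABARAPL2 and to move to autophagosomes, was the most abundant in both groups. It was measured at 660, 679 and 580 FPKM in the S100A4-negative libraries and at 89.9, 82.1 and 111 FPKM in the S100A4-positive ones. All S100A4-negative libraries were far above all S100A4-positive libraries, and S100A4-positive replicate 3 was the highest of its group. The means of 640 ± 52.5 and 94.2 ± 14.8 FPKM (SD, n = 3 each) differed 6.79-fold, with a log2 fold change of -2.76 (limma SE 0.15, adjusted p = 2.16e-05).

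Gimap4, which has been described as a GTPase that speeds the execution of apoptosis in T cells, stood second in both groups. Its FPKM was 371, 393 and 367 in S100A4-negative against 51.4, 38.4 and 70.7 in S100A4-positive libraries. The S100A4-negative values lay close together, while the S100A4-positive ones were spread more widely, with replicate 2 lowest and replicate 3 highest. From 377 ± 13.997 to 53.5 ± 16.2 FPKM (SD, n = 3 each) the ratio was 7.05, with a log2 fold change of -2.84 (limma SE 0.21, adjusted p = 6.64e-05).

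Gimap3, reported on intracellular membranes and the close copy of Gimap5, had the largest difference of the family. Values were 242, 259 and 226 FPKM in S100A4-negative and 32.5, 23.8 and 42.8 FPKM in S100A4-positive libraries. The groups were well apart, again with S100A4-positive replicate 2 lowest and replicate 3 highest. Its mean went from 243 ± 16.6 to 33.02 ± 9.48 FPKM (SD, n = 3 each), a log2 fold change of -2.88 (limma SE 0.20, adjusted p = 5.68e-05).

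Gimap5, the member whose loss gives T cell lymphopenia in rats and mice, was measured at 43.1, 38.2 and 45.6 FPKM in S100A4-negative libraries. In S100A4-positive libraries it was at 7.10, 5.86 and 10.9 FPKM, each below every S100A4-negative value. The means were 42.3 ± 3.77 and 7.94 ± 2.60 FPKM (SD, n = 3 each), a 5.33-fold difference with a log2 fold change of -2.31 (limma SE 0.21, adjusted p = 0.000143). These values rest on 908 to 1138 recovered reads per S100A4-negative library and 117 to 252 per S100A4-positive library, which would include any reads that belong to Gimap3.

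Gimap1, which mature T and B cells need, had the smallest difference of the 8. It was at 47.7, 59.0 and 57.1 FPKM in S100A4-negative and at 7.16, 10.5 and 17.6 FPKM in S100A4-positive libraries. No library overlapped with the other group, although S100A4-positive replicate 3 was more than double replicate 1. The means of 54.6 ± 6.03 and 11.8 ± 5.31 FPKM (SD, n = 3 each) gave a log2 fold change of -2.20 (limma SE 0.28, adjusted p = 0.000596). Of its exon bases 36.0% are also exon bases of the antisense gene Gimap1os or of the read-through gene Gm28053. The labels do not state that counting used strand, so reads of Gimap1 and Gimap1os over the shared bases cannot be told apart.

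Gimap7, which has been reported to stimulate GTP hydrolysis by family members through dimer formation, was the lowest member in both groups. It was at 35.0, 43.0 and 39.3 FPKM in S100A4-negative and at 4.202, 4.25 and 10.001 FPKM in S100A4-positive libraries. S100A4-positive replicate 3 stood above the other two, and still far below the lowest S100A4-negative library. The change from 39.1 ± 4.01 to 6.15 ± 3.33 FPKM (SD, n = 3 each) had a log2 fold change of -2.58 (limma SE 0.29, adjusted p = 0.000353). Its S100A4-positive values rest on 64, 57 and 156 recovered reads, the fewest of the family.

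Gimap8, the member with 3 GTP-binding motifs, was measured at 48.7, 58.0 and 62.6 FPKM in S100A4-negative and at 8.16, 7.79 and 13.4 FPKM in S100A4-positive libraries. The means were 56.4 ± 7.12 and 9.78 ± 3.14 FPKM (SD, n = 3 each), with a log2 fold change of -2.44 (limma SE 0.21, adjusted p = 0.000121). Gimap9 had nearly the same size of difference. It was at 53.0, 54.3 and 57.5 FPKM in S100A4-negative and at 7.72, 8.51 and 12.3 FPKM in S100A4-positive libraries, from 54.9 ± 2.28 to 9.50 ± 2.43 FPKM (SD, n = 3 each; log2 fold change -2.44, SE 0.17; limma adjusted p = 5.65e-05). Neither gene's groups overlapped. As for every member, an exact two-sided permutation over the 6 libraries gave p = 0.1.

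In the authors' deposited table all 8 genes were called lower, as were 13.8% of tested genes. The authors' deposited table gives log2 fold changes of -1.83 for Gimap1, -2.50 for Gimap3, -2.44 for Gimap4, -2.03 for Gimap5, -2.38 for Gimap6, -2.29 for Gimap7, -2.15 for Gimap8 and -2.15 for Gimap9. That table scales the libraries by other factors, and its values are all less negative than those from FPKM.

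The order of the levels was Gimap6, Gimap4, Gimap3, Gimap8, Gimap9, Gimap1, Gimap5 and Gimap7 in S100A4-negative libraries. Each of the first 3 was above the next gene in all 3 libraries with no overlap of their ranges, as was Gimap1 above Gimap5. Gimap8 and Gimap9, Gimap9 and Gimap1, and Gimap5 and Gimap7 held this order in 2 of 3 libraries each. In S100A4-positive libraries Gimap1 came next after Gimap3, ahead of Gimap8 and Gimap9. There Gimap6 over Gimap4 and Gimap3 over Gimap1 held in all 3 libraries without overlap of the ranges. Gimap4 over Gimap3, Gimap9 over Gimap5 and Gimap5 over Gimap7 held within each of the 3 libraries, although their ranges overlapped. Gimap1 over Gimap8 and Gimap8 over Gimap9 held in 2 of 3. An exact two-sided sign-flip permutation of the 3 within-library differences cannot go below p = 0.25, so none of these orders could pass 0.05. Within each group, the level of Gimap6 exceeded that of 99.0% of tested genes in S100A4-negative and 89.9% in S100A4-positive cells. For Gimap7 these shares were 73.3% and 36.2%.

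Gimap6 made up the largest part of the family total in both groups and its shares overlapped, at 42.4% ± 1.82 of the summed FPKM in S100A4-negative against 42.3% ± 3.53 in S100A4-positive libraries (SD, n = 3 each). The share of Gimap4 was 25.0% ± 0.465 against 23.5% ± 1.99 and that of Gimap3 16.1% ± 0.308 against 14.5% ± 1.26, both lower in each S100A4-positive library than in any S100A4-negative one. The margins were narrow: Gimap4 was at 24.71% in S100A4-positive replicate 1 against 24.73% in S100A4-negative replicate 1. Gimap3 was at 15.61% in S100A4-positive replicate 1 against 15.76% in S100A4-negative replicate 3. Gimap5 went the other way, with 2.82% ± 0.386 against 3.47% ± 0.271 and no overlap. Each of these 3 had an exact two-sided permutation p of 0.1, or 0.267 adjusted over the 8 members, and the shares of the other members overlapped between groups. Of the 28 ratios between members, taken as differences of log2(FPKM + 1), 7 did not overlap between groups. None passed after adjustment (Benjamini-Hochberg adjusted exact permutation p = 0.40 each). Adding 1 shrinks the changes of the low members most. The plain FPKM ratios of Gimap4 to Gimap8, Gimap3 to Gimap9, Gimap4 to Gimap9 and Gimap5 to Gimap6, all among these, did overlap between groups. Of these 7, the ratio with the largest shift was that of Gimap3 to Gimap5, the near copies, at a log2 ratio of 2.49 ± 0.225 in S100A4-negative against 1.93 ± 0.104 in S100A4-positive libraries (SD, n = 3 each).

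Because T cell markers were lower in the same libraries, each GIMAP gene was set against the mean of Cd3d, Cd3e and Cd3g, the CD3 chains of the T cell receptor complex. These chains had log2 fold changes of -2.66, -2.61 and -2.40, within the range of the GIMAP genes. Cd3e, for example, was at 156, 158 and 124 FPKM in S100A4-negative and at 22.4, 17.96 and 30.2 FPKM in S100A4-positive libraries. Relative to the chains, Gimap1 was 0.35 higher on the log2 scale in S100A4-positive libraries (SE 0.16) and Gimap5 0.24 higher (SE 0.20). Gimap3 had a difference of -0.32 (SE 0.19), Gimap4 of -0.28 (SE 0.18) and Gimap6 of -0.20 (SE 0.14). Gimap7, Gimap8 and Gimap9 differed by -0.02 (SE 0.17), 0.11 (SE 0.16) and 0.12 (SE 0.11). All 8 genes overlapped between groups on this measure, and the exact two-sided permutation p was 0.2 to 1 (0.48 to 1 after Benjamini-Hochberg adjustment). The median of the 8 differences was 0.04, and it lay between -0.06 and 0.16 under the other scalings, pseudocount, reference list and left-out libraries. No difference from the CD3 chains was thus detectable with 3 libraries a group, which does not show that the genes moved alike.

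**Figure D2:**
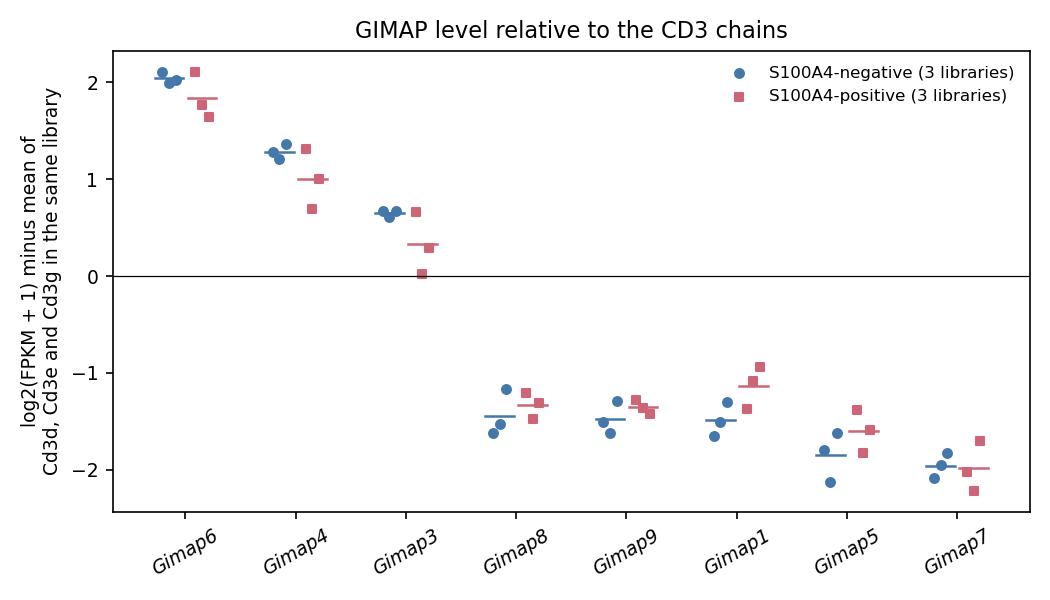
Level of each GIMAP gene relative to the CD3 chains: log2(FPKM + 1) minus the mean of Cd3d, Cd3e and Cd3g in the same library, for 3 S100A4-negative (circles) and 3 S100A4-positive (squares) libraries, with group means as lines. The groups overlap for all 8 genes, with differences between group means from -0.32 (Gimap3) to 0.35 (Gimap1).

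Among S100A4-positive libraries the family was highest in replicate 3 for all 8 genes. The mean log2(FPKM + 1) of the members was 4.004, 3.92 and 4.66 in S100A4-positive replicates 1, 2 and 3. That of the CD3 chains was 4.41, 4.61 and 5.16, and that of the B cell markers 4.74, 4.96 and 5.44, so both marker sets were also highest in replicate 3. The monocyte and macrophage markers were at 7.57, 7.29 and 7.30. The neutrophil markers went the other way, at 5.81, 4.72 and 4.3, lowest in replicate 3. In S100A4-negative libraries the members were at 6.68, 6.80 and 6.77 and the CD3 chains at 7.26, 7.41 and 7.16, while the B cell markers ranged more widely, from 5.50 in replicate 1 to 7.11 in replicate 3. No replicate was highest for all 8 genes in that group, replicate 2 being highest for 5 and replicate 3 for 3.

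**Figure D3:**
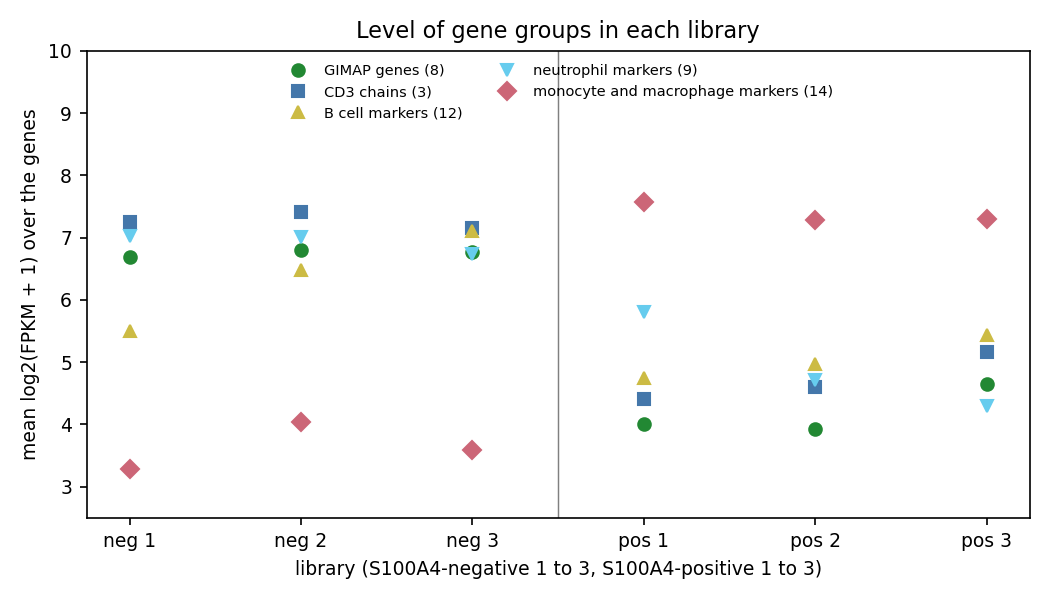
Mean log2(FPKM + 1) of the GIMAP genes and of 4 marker groups in each library (S100A4-negative 1 to 3, then S100A4-positive 1 to 3). The GIMAP genes and CD3 chains are both lower in S100A4-positive libraries, at 3.92 to 4.66 and 4.41 to 5.16, while the 14 monocyte and macrophage markers are higher, at 7.29 to 7.57.

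The genes whose profile over the 6 libraries was closest to the mean of the 8 were sought among 8771 other genes with a mean of at least 5 FPKM, after removal of pseudogenes, predicted genes and segments of antibody or T cell receptor genes. Likeness was the root mean square distance between log2(FPKM + 1) profiles, each centred on its own mean. The closest was Skap1, an adaptor of T cell receptor signalling, at a distance of 0.07. It was followed by Mgst2, a microsomal glutathione transferase, at 0.14, Cd3e at 0.15, Fam169b at 0.15, Cd27, a co-stimulatory receptor of T cells, at 0.16 and Inpp4b, a phosphoinositide phosphatase, at 0.17. The members' own distances from their mean ran from 0.10 (Gimap8) to 0.26 (Gimap1), and 47 other genes lay within that largest distance. Skap1 was at 74.9, 84.3 and 71.4 FPKM in S100A4-negative and at 10.2, 9.51 and 15.9 FPKM in S100A4-positive libraries. It was the highest in S100A4-positive replicate 3, as the GIMAP genes were. With 6 libraries in 2 groups, this distance mostly measures the size of the group difference.

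Genes of the BCL2 family, which control survival at mitochondria, gave calls in both directions. Bcl2, which keeps resting lymphocytes alive, was lower, at 16.8, 16.8 and 19.9 FPKM in S100A4-negative and 10.2, 7.07 and 10.8 FPKM in S100A4-positive libraries (log2 fold change -0.88, SE 0.18; limma adjusted p = 0.00419). It was the only one of 13 tested BCL2 family genes called lower, while 7 were called higher and 5 were not called, with a median log2 fold change of 0.64. Among all tested genes 43.4% were called lower and 19% higher. Bcl2a1d, an anti-apoptotic member with near-identical copies whose reads may be split, rose from 39.3 ± 14.9 to 281.8 ± 139.6 FPKM (log2 fold change 2.73). Its copy Bcl2a1b had a log2 fold change of 1.97. Pmaip1, the pro-apoptotic Noxa, rose by 1.78 on the log2 scale and Mcl1, an anti-apoptotic member, by 1.13. The limma adjusted p of these 4 genes was 0.000215 to 0.00205. After median-of-ratios rescaling 12 BCL2 family genes were called higher.

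Over all tested genes 19% were called higher and 43.4% lower. Of 14 genes of ATG8 conjugation and autophagy, 5 were called higher, 2 lower and 7 were not called. Their median log2 fold change was -0.08, and it was 0.30 after median-of-ratios rescaling and 0.07 after quantile normalization. Sqstm1, the autophagy receptor p62, rose by 1.89, from 702.8 ± 51.0 to 2625 ± 403.3 FPKM. The ATG8 proteins Gabarapl1 and Gabarap rose by 1.49 and 1.30 on the log2 scale, and Atg16l1, part of the complex that conjugates ATG8 to membranes, fell by 0.71. Gabarapl2, the reported partner of Gimap6, was at 26.97, 39.3 and 37.2 FPKM in S100A4-negative and 21.4, 32.5 and 33.7 FPKM in S100A4-positive libraries. Its groups overlapped (log2 fold change -0.24, SE 0.22; limma adjusted p = 0.356), and its sign changed after median-of-ratios rescaling.

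The IL-7 receptor pathway, which maintains memory T cells, had 9 of 12 genes called lower, 1 higher and 2 not called, with a median log2 fold change of -0.82. Of all tested genes 43.4% were called lower and 19% higher. Foxo1, a transcription factor that controls Il7r, fell by 1.68 on the log2 scale, from 33.4 ± 1.38 to 9.75 ± 0.499 FPKM. Il7r, the receptor chain, fell by 1.44, the signal transducer Stat5b by 1.36 and the kinase Jak3 by 1.35. After median-of-ratios rescaling 5 of the 12 were called lower and 2 higher, with a median of -0.44. Among 10 genes of the GSK3 and NFAT group, 7 were called lower, 0 higher and 3 not called (median -0.69). After median-of-ratios rescaling 5 were called lower and 2 higher, with a median of -0.31. Nfatc1, Nfatc3 and Nfatc2, calcium-regulated transcription factors of T cells, fell by 1.498, 1.33 and 1.21 on the log2 scale. Myc, a growth regulator, fell by 1.45. Gsk3b, whose product has been linked to Gimap5, had a log2 fold change of -0.39 (limma SE 0.14, adjusted p = 0.0458), close to the median of all genes. That call was lost in 9 of 15 alternative settings, among them both rescalings and 5 of the 6 fits without a library. Bcl2, Gabarapl2 and Gsk3b are named for these reported links, and were chosen after their values were seen.

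**Figure D4:**
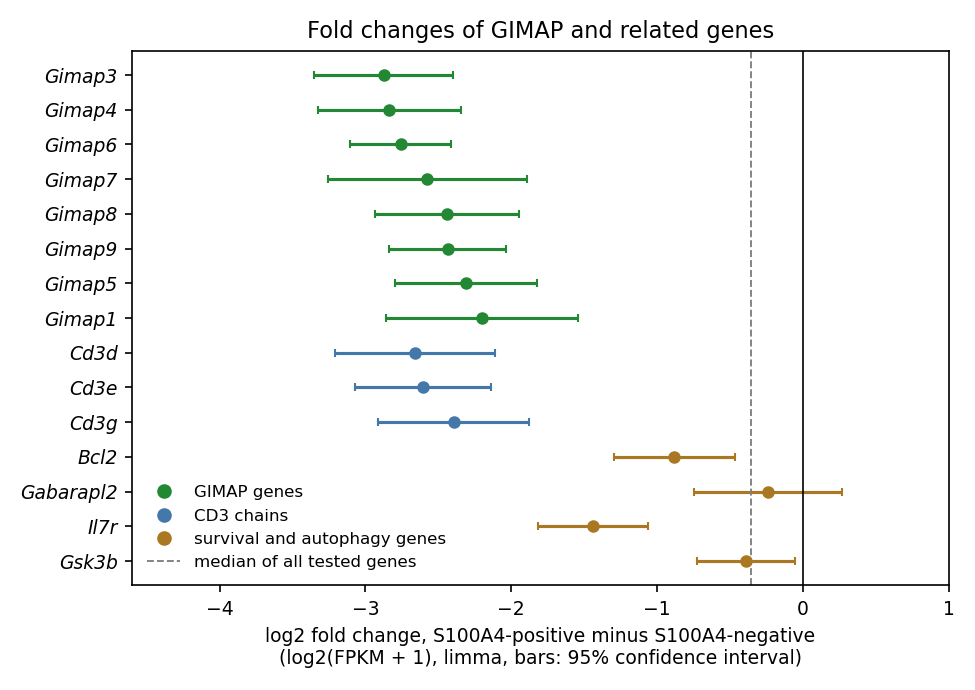
Log2 fold change (S100A4-positive minus S100A4-negative, limma on log2(FPKM + 1)) with 95% confidence intervals for the 8 GIMAP genes, the CD3 chains and 4 survival or autophagy genes; the dashed line is the median of all tested genes, -0.36. The GIMAP genes, from -2.88 to -2.20, and the CD3 chains, from -2.66 to -2.40, lie close together, the chains inside the GIMAP range, while Il7r (-1.44), Bcl2 (-0.88), Gsk3b (-0.39) and Gabarapl2 (-0.24) lie nearer to 0. Genes called higher are not drawn: 7 of 13 BCL2 family, 5 of 14 autophagy and 1 of 12 IL-7 pathway genes. Called lower in these lists were 1, 2 and 9 genes. Of 10 GSK3 and NFAT genes 7 were called lower and 0 higher.

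Other GTP-binding families gave counts in both directions, as did all tested genes, of which 43.4% were called lower and 19% higher. Of 8 tested septins, which are cytoskeletal GTPases, 3 were called lower, 2 higher and 3 not called (median -0.25, and 0.10 after median-of-ratios rescaling). Septin1, abundant in lymphocytes, fell from 384 ± 18.5 to 81.1 ± 17.6 FPKM, by 2.25 on the log2 scale, and Septin6 fell by 1.44. Septin8 and Septin10 each rose by 1.11, the latter from 0.849 ± 0.221 to 2.98 ± 0.197 FPKM. Of 15 tested interferon-inducible GTPases, 8 were called lower, 3 higher and 4 not called (median -0.60). In that list Gbp5 rose by 1.76, while Gbp4 fell by 1.63, Iigp1 by 1.59 and Tgtp1 by 1.36 on the log2 scale; several of these genes have close copies whose reads may be split.

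All 8 genes lie in a single cluster on mouse chromosome 6 (GRCm38), 48647234 to 48770851, a span of 123618 bases. Along the chromosome the order is Gimap8, Gimap9, Gimap4, Gimap6, Gimap7, Gimap1, Gimap5 and Gimap3, with Gimap6 and Gimap3 on the - strand and the others on the + strand. Within 200 kb on either side 32 other genes are annotated, of which 10 passed the filter and 9 were listed at 0 in every library. Of the 10 tested, 4 were called lower, 3 higher and 3 not called, beside 43.4% lower and 19% higher over all tested genes.

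Inside the cluster, the other tested genes were low in level and lower in S100A4-positive libraries. Gimap1os, the antisense transcript, was at 2.60, 2.27 and 2.43 FPKM in S100A4-negative and 0.354, 0.439 and 0.440 FPKM in S100A4-positive libraries (log2 fold change -1.28, SE 0.16; limma adjusted p = 0.000477). For this low gene the added 1 matters: the ratio of the mean FPKM was 5.92, and the authors' deposited table gives a log2 fold change of -2.18. Of its exon bases 35.7% are shared with Gimap1 or Gm28053. Gm28053, the predicted read-through gene from 48718607 to 48752644, shares 43.7% of its exon bases with Gimap7, Gimap1os, Gimap1 and Gimap5 and had a log2 fold change of -1.98, from only 5 reads in each S100A4-positive library. The long non-coding gene Gm44226 had one of -1.17, with 4 to 18 reads in S100A4-positive libraries. By the ratio of the mean FPKM, Gm28053 was 8.32-fold and Gm44226 4.42-fold lower, both from few reads.

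Outside the cluster, neighbours were called in both directions. Tmem176b and Tmem176a, transmembrane genes whose nearest bases lie 62967 and 70068 bases from the cluster, on the side of Gimap3, were higher in every S100A4-positive library. Tmem176b was at 20.5, 39.5 and 13.2 FPKM in S100A4-negative and 91.4, 103 and 150.1 FPKM in S100A4-positive libraries (log2 fold change 2.30, SE 0.37; limma adjusted p = 0.00165). Tmem176a had one of 2.04 (limma SE 0.38, adjusted p = 0.00320). On the other side, Zfp775 (-0.47), Repin1 (0.18) and Lrrc61 (0.00) were not called, although the calls of these genes changed in 4, 2 and 1 of the alternative settings. Zfp862-ps, a transcribed pseudogene, fell by 1.02 on the log2 scale, and Sspo had a log2 fold change of 0.73 whose call was lost in 5 settings.

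**Figure D5:**
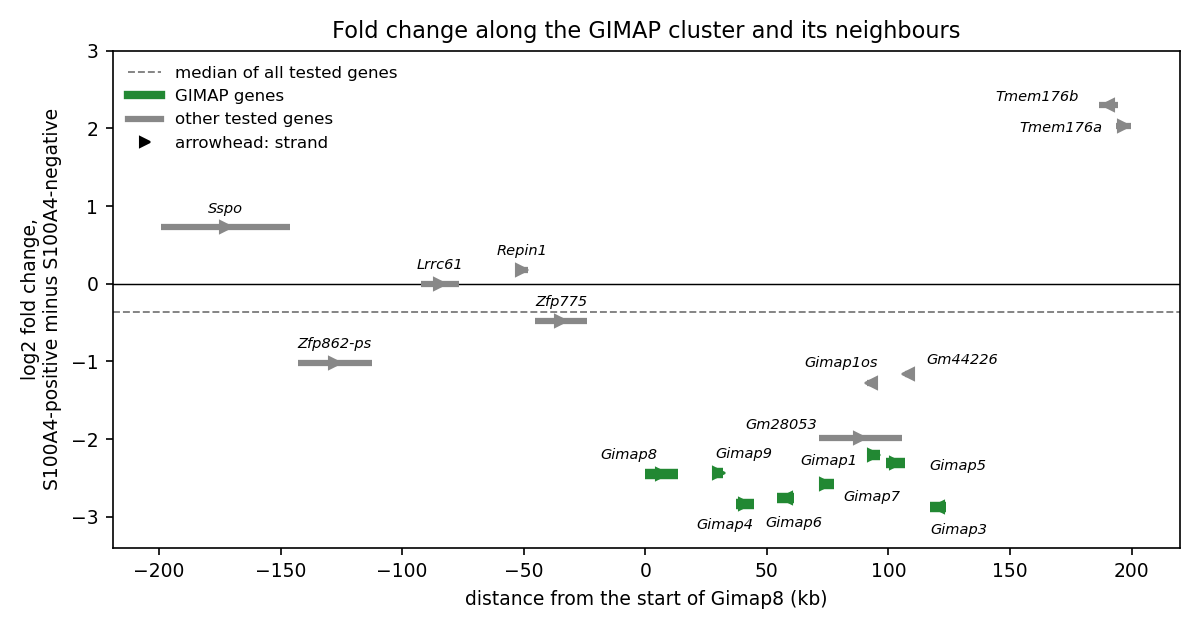
Log2 fold change (S100A4-positive minus S100A4-negative) of the tested genes along the cluster, by distance in kb from the start of Gimap8; bars span each gene, arrowheads give the strand, and GIMAP genes are in green. The 8 GIMAP genes lie between -2.88 and -2.20, the tested genes to the left between -1.02 and 0.73, and Tmem176b and Tmem176a on the right at 2.30 and 2.04.

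The starts of the genes were compared for short words that transcription factors of lymphocytes are known to bind, in RefSeq promoter windows (GRCm38.p6) of 250 bases before to 50 after each start. The words were searched on both strands in 9 windows of the members, Gimap8 having 2, and in all 32851 windows. The ETS word GGAAGT was found for 4 members (Gimap1, Gimap5, Gimap6 and Gimap9) and in 23.8% of all windows. The RUNX word TGTGGT was found for 3 members (Gimap1, Gimap4 and Gimap7) and in 16.8% of windows, and the TCF word CTTTGA for 2 (Gimap4 and Gimap7) and in 16% of windows. The IKZF word TGGGAA was found for Gimap3 and in 25.6% of windows, and the GATA word AGATAA for 0 members and in 11.2% of windows. No word was common to all 8 genes. The ETS word lay before the start site in Gimap6, the most abundant member, and in 2 places in Gimap5, as shown with the word in capitals, read on the strand of the gene.
Gimap6, chr6:48708245-48708296, - strand: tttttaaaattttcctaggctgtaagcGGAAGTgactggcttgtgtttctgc
Gimap5, farther from the start, chr6:48745954-48746013, + strand: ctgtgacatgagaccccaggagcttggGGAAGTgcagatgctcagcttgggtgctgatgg
Gimap5, nearer to the start, chr6:48746126-48746185, + strand: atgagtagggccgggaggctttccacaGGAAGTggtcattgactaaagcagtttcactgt

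The word began 25 bases before the start site in Gimap6 and 216 and 44 bases before it in Gimap5. A match describes the letters of the window and is not evidence of binding.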

How the data were processed

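The deposited expression table holds FPKM for each of 6 libraries, per the file headers. The authors' deposited comparison table lists for each gene the normalized read count averaged over a group (a signal), then the log2 fold change, p-value and adjusted p-value, per the file headers. HISAT2 2.1.0, Cufflinks, Cuffnorm and mm10 are named per the submitters' processing notes, without their roles; counting, strand use and the authors' test are not given in the sources used here. Whole reads were recovered from the FPKM and the authors' group means: all 135018 values above 0 lay within 0.02 of a whole read.

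Columns were matched to samples by name. Genes averaging at least 1 FPKM were fitted on log2(FPKM + 1), pseudocount 1, with limma 3.58.1 (R 4.3.3, trended prior variance, no covariate) and Benjamini-Hochberg adjustment over 13241 genes; calls have an adjusted p under 0.05. Single values were compared by exact two-sided permutation tests. The fit was tested on simulated data. Python 3.11.15, scipy 1.17.1, Biopython 1.88 and matplotlib 3.10.9 were used. Alternatives were another pseudocount and filter, 2 rescalings, other variance models, a replicate block, limma voom on recovered reads and leaving out each library.

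The members and lists were chosen with earlier results of these data known. Genes named are the members, tested genes within 200 kb, per list up to 4 called genes with the largest change, the 6 most alike genes and the gate genes; of the marker lists only examples are named. The planned comparison of protein sequences was made on coding sequences instead, translated from GENCODE M21 (55141 of 55951 identifiers annotated); promoter windows are RefSeq, GRCm38.p6, and all 8 members matched. The result of 1 gene list is not reported here.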

Additional observations from a re-analysis of the deposited data

How the results depend on the processing

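All 8 GIMAP genes were called lower in each of the 15 alternative settings (120 fits, largest limma adjusted p = 0.00376). Their median log2 fold change was -2.66 with a pseudocount of 0.1, -2.15 after median-of-ratios rescaling, -2.30 after quantile normalization, -2.25 with array weights, -2.66 with limma voom on recovered reads, and -2.78 to -2.37 when a library was left out. Relative to the CD3 chains, the median of 0.04 became -0.06 with a pseudocount of 0.1 and ranged from -0.0347 to 0.125 over left-out libraries, so its sign was not stable. With the replicate number as a replicate block all 8 were again called lower, with a median of -2.51, and calls over all genes went from 5741 lower and 2512 higher to 6188 and 2669. Deviations of same-numbered libraries correlated at 0.38, 0.08 and 0.37, and each S100A4-negative library correlated best with its same-numbered S100A4-positive library. From the other side, S100A4-positive replicate 2 correlated best with S100A4-negative replicate 3 (0.15). The labels do not state that the numbers pair libraries, so the main fit did not use them, and whether libraries were paired is not settled. Without a filter 28627 genes were tested and with a filter of 5 FPKM 9498. Counts of some gene lists moved by over 1.5 times. NK cell markers called lower went from 4 to 2 in 8 settings, among them the filter of 5 FPKM, which left 3 of these markers tested. That filter left 11 interferon-inducible GTPases tested, with 4 called lower in place of 8. It left 1 endothelial marker tested, with 0 called higher in place of 3. Genes below the filter, such as Iigp1 and Flt1, were no longer tested, so the counts under that filter do not show unstable calls. Some NK calls were borderline: Klrk1, at a limma adjusted p of 0.0482 in the main fit, lost its call in 12 of the 15 settings. Klrb1c was at a limma adjusted p of 0.0448 in the main fit. What else moved the counts in the other settings was not tested. Depth limits Gimap7 most, with 57 to 156 reads in S100A4-positive libraries, and 3 libraries a group cannot give an exact permutation p below 0.1.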
